A study of Drosophila melanogaster with 72 samples.

Results

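The genes Hml, NimC1, eater, Sr-CI, Pxn and crq, which are used as markers of Drosophila blood cells, were followed through RNA sequencing of skeletal muscle. All 6 listed genes had a row in the count tables, out of 15682 genes in each table, and all 6 passed the filter on low counts in every experiment. The question was whether blood cell RNA carried in the muscle samples was stable across strains, ages and times of day. The 72 libraries came from 3 experiments. In the age experiment, muscle of the strains O1 and O3, in which aging is delayed, and of their parental strain B3 was sampled at 6 weeks and at 1 week, with 3 libraries per group. In the day course, the same strains were sampled at ZT0, ZT6, ZT12 and ZT18, where zeitgeber time (ZT) is the hour of the lighting schedule. These groups held 3 libraries, except O3 and B3 at ZT6 and B3 at ZT18 with 2 each and O1 at ZT18 with 1. In the transgenic day course, mhc>timeless flies, in which the muscle driver Mhc-Gal4 expresses the clock gene timeless, were set against mhc flies, which carry the driver alone. These groups held 3 libraries, except mhc>timeless at ZT0 with 2. The labels used here give no age for the day courses and no hour of harvest for the age experiment and do not record whether replicate libraries stem from separate animals. The p-values therefore describe the scatter of these libraries, and part of that scatter may be technical.

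Adult flies circulate hemocytes in an open body cavity, and most of them are plasmatocytes, phagocytes that also sit on tissue surfaces such as muscle. Plasmatocytes take up microbes and dying cells through surface receptors, secrete extracellular matrix proteins and contribute to clotting of the hemolymph. Among the 6 genes, Hml encodes hemolectin, a large secreted clotting protein. NimC1 and eater encode receptors of the Nimrod family that bind bacteria, Sr-CI encodes a class C scavenger receptor, and crq encodes croquemort, a receptor of the CD36 family that takes part in the engulfment of dying cells. Pxn encodes peroxidasin, a secreted enzyme of the basement membrane that is used as a plasmatocyte marker.

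Each of the 6 genes had at least 178 reads in every library. Library totals, in M (mega) counts, were 15.5 to 35.7 for the age libraries, 39.5 to 90.0 for the strain day course and 53.1 to 170 for the transgenic lines. Levels are given as CPM, the count scaled by the effective library size. Divided by the length of the exons in the Ensembl annotation, crq had the highest mean of the 6 in the age, day and transgenic experiments, with 57.5, 50.4 and 68.1 CPM per kb. Hml followed with 23.5, 35.7 and 34.2 CPM per kb, and Sr-CI had 21.5, 26.9 and 25.7 CPM per kb. NimC1 had 12.1, 12.7 and 21.2 CPM per kb, Pxn had 10.1, 13.8 and 14.96 CPM per kb, and eater was the lowest with 4.28, 2.97 and 3.77 CPM per kb. In O3 at ZT0 and ZT6, however, Hml was above crq, with 63.5 and 49.6 CPM per kb of Hml and 48.7 and 49.0 CPM per kb of crq. Over libraries, the ranges of crq and Hml overlapped in the day course and not in the other experiments. The ranges over libraries of Hml and Sr-CI overlapped in all 3 experiments, as did those of NimC1 and Pxn and those of Sr-CI and NimC1. In the age and day experiments, Hml and Sr-CI each overlapped with both NimC1 and Pxn, and in the age experiment eater overlapped with Pxn. The order among these genes therefore held only for the means. Exons of ex on the opposite strand covered 15.7% of the crq exons. Since the strand setting of the counting is not given in the sources used here, reads of crq and ex may not be fully separated.

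The 6 genes lie on chromosome arms 3L (Hml and Pxn), 2L (NimC1, Sr-CI and crq) and 3R (eater) in the Ensembl annotation. Muscle markers were abundant. The 11 listed muscle genes, Mhc, bt and sls among them, summed to 13547 to 34668 CPM per library in the age experiment, while the 6 hemocyte genes summed to 449 to 881 CPM. Some other hemocyte genes were near the limit of detection. The receptors Sr-CII and Sr-CIII were at 0 counts in 16 and 10 of the libraries, and gcm and gcm2, transcription factors of embryonic hemocytes, were at 0 in 34 and 33. Markers of other tissues were present too. Genes of the fat body, the insect counterpart of liver and adipose tissue, summed to 3498 to 10669 CPM in the age experiment, and genes of nephrocytes, filtering cells of the body cavity, summed to 49.6 to 190.2 CPM. In these bulk samples, fewer hemocytes and less RNA per hemocyte cannot be told apart.

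In the parental strain B3, the 6 genes did not change with age as a block: eater and Pxn fell, crq rose, and Hml, NimC1 and Sr-CI did not pass the test. This was 3 of 6 genes called, where 41.8% of all 12445 genes tested were called in either direction, 21.8% higher and 20% lower. Pxn had 32.8, 35.5 and 33.4 CPM at 6 weeks, against 55.6, 62.3 and 66.3 CPM at 1 week. All 6-week libraries lay below all 1-week libraries, and the log2 fold change was -0.86 ± 0.16 (edgeR quasi-likelihood test, adjusted p = 4.66e-04). The receptor gene eater had 10.3, 9.95 and 9.75 CPM at 6 weeks, against 13.3, 16.1 and 17.6 CPM at 1 week, again without overlap. Its log2 fold change was -0.65 ± 0.19 (edgeR adjusted p = 0.0113). In contrast, crq had 214, 208 and 214 CPM at 6 weeks and 167, 189.7 and 197 CPM at 1 week. The groups did not overlap, and the rise of 0.20 ± 0.061 on the log2 scale was the smallest of the 3 (edgeR adjusted p = 0.0169). Hml averaged 253 ± 41.4 CPM at 6 weeks and 265 ± 43.6 CPM at 1 week (SD, n = 3 each), with overlapping libraries and a 95% confidence interval of the log2 fold change of -0.54 to 0.41. That interval leaves room for a change of either sign. The call of eater was lost without library 3 of B3 at 1 week (edgeR adjusted p = 0.0543), and that of crq without library 1 at 1 week (0.0942) or library 3 at 6 weeks (0.0505).

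In O3 the genes that changed with age rose: NimC1, eater and crq were called, 3 of 6 where 50.1% of all genes tested were called, 22.8% higher and 27.4% lower. NimC1 had 54.7, 38.2 and 37.8 CPM at 6 weeks, against 33.6, 26.6 and 21.3 CPM at 1 week, with no overlap and a log2 fold change of 0.68 ± 0.19 (edgeR adjusted p = 0.012). For crq the values were 175, 162 and 171 CPM at 6 weeks and 130.3, 120.2 and 125 CPM at 1 week. All old libraries were higher, by 0.44 ± 0.061 on the log2 scale (edgeR adjusted p = 7.89e-05). The gene eater had 18.9, 15.2 and 13.3 CPM at 6 weeks and 13.6, 11.1 and 9.42 CPM at 1 week. Here 1 old library lay inside the young range, and the log2 fold change of 0.47 ± 0.18 passed narrowly (edgeR adjusted p = 0.0453). It missed the threshold in 11 of the 18 fits that left out 1 library and with DESeq2 (adjusted p = 0.0643). Hml averaged 382 ± 94.7 CPM at 6 weeks and 288 ± 74.1 CPM at 1 week (SD, n = 3 each), which was not called (edgeR adjusted p = 0.141). Library 1 of O3 was the highest of its group at both ages for all 6 genes. Without library 1 at 6 weeks, NimC1 and eater lost their calls (edgeR adjusted p = 0.0592 and 0.187). Without library 1 at 1 week, Hml and Sr-CI gained a call (edgeR adjusted p = 0.0431 and 0.0220).

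In O1 none of the 6 genes was called between 6 weeks and 1 week, against 22.7% of all genes tested (10.4% higher and 12.4% lower). With edgeR, 0 of the 6 had an unadjusted p under 0.05, and DESeq2 called 0, where it called 26% of all genes. The log2 fold changes ran from -0.08 for Pxn to 0.26 for NimC1. Their 95% confidence intervals do not show that the levels were equal, since that of Hml ran from -0.25 to 0.70 and that of NimC1 from -0.15 to 0.68. The narrowest belonged to crq, from -0.07 to 0.19, with 141, 147 and 159 CPM at 6 weeks and 139.7, 141 and 149.7 CPM at 1 week, groups that overlapped.

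**Figure D1:**
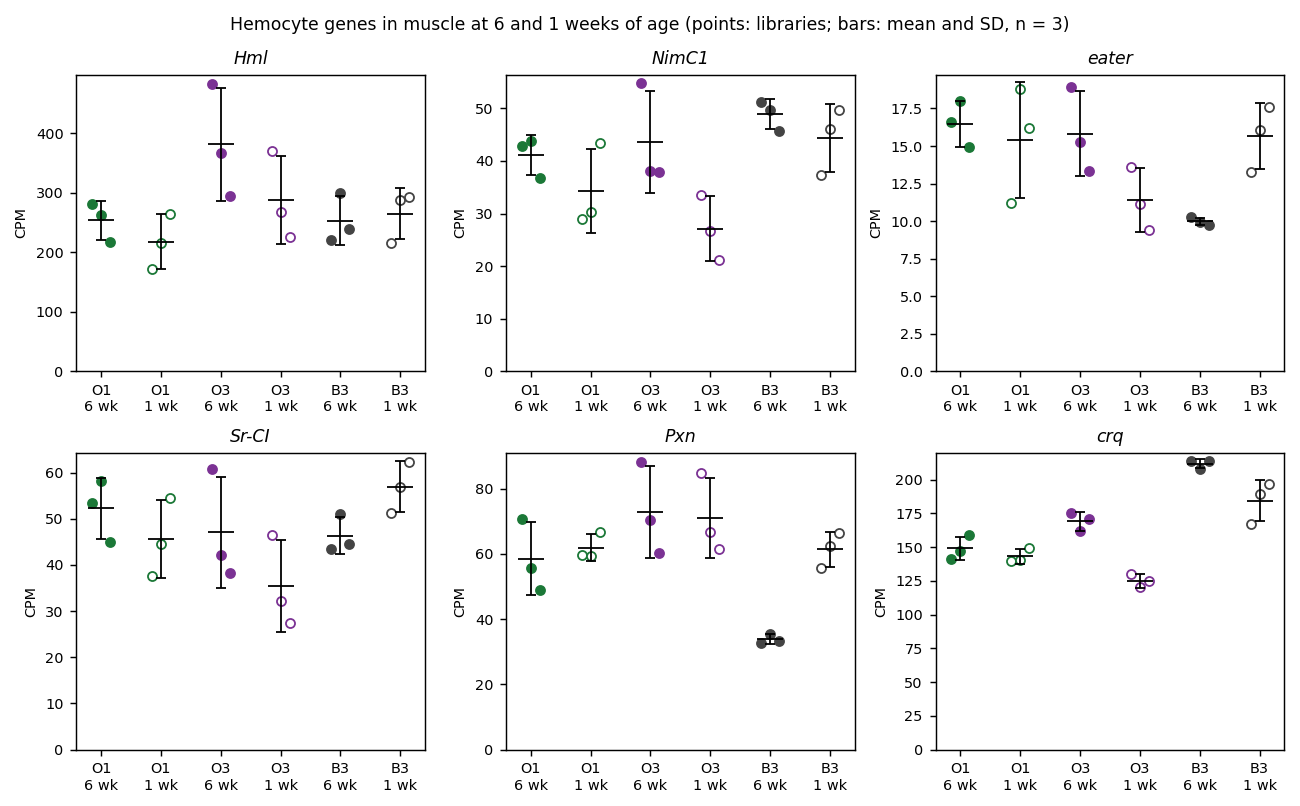
CPM of each hemocyte gene (vertical axis, from 0) in the age experiment, by strain and age (horizontal axis), with 3 libraries per group as points and the mean ± SD as bars. Pxn and eater were low in old B3 and not in old O1 or O3, while crq was higher in B3 than in O1 and O3 at each age.

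Whether the age effect differed between strains was tested directly. The age effect of Pxn was 0.78 ± 0.22 higher on the log2 scale in O1 than in B3 (edgeR adjusted p = 0.0294), 1 of 6 genes called where 14.3% of all genes were (5.98% higher and 8.28% lower). Pxn averaged 58.5 ± 11.2 CPM at 6 weeks and 61.9 ± 4.13 CPM at 1 week in O1 (SD, n = 3 each). In O3 against B3, the difference in age effect was 1.12 ± 0.26 for eater (edgeR adjusted p = 0.00929) and 0.90 ± 0.22 for Pxn (adjusted p = 0.0118), 2 of 6 genes where 17.6% were called (10.1% higher and 7.59% lower). The O1 result for Pxn was the less stable one, since it missed the threshold in 7 of the 18 fits without 1 library. These interactions share the B3 libraries.

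Some measures of the libraries moved with age. Reads in no annotated feature made up 13.0 to 15.7%, 15.5 to 16.1% and 16.4 to 17.6% of the total at 6 weeks in O1, O3 and B3, against 20.8 to 26.4%, 24.6 to 26.6% and 26.4 to 27.9% at 1 week, with no overlap in any strain. The summed muscle genes averaged 16574 CPM at 6 weeks and 26109.7 CPM at 1 week in O1, 14435 and 32154 CPM in O3, and 23836 and 31423 CPM in B3, so the old libraries held a smaller share of muscle transcripts in all 3 strains. Fat body genes averaged 6003 CPM at 6 weeks and 4070.4 CPM at 1 week in O3, but 6236 and 9774 CPM in B3. Testis genes reached 581.5 CPM in 1 library of O3 at 1 week. The part of these measures in the age results was not tested. Leaving out the 4 testis-rich libraries of O1 and O3 at 1 week left 1 library in each of these groups. For O3 this was library 3, the lowest of its group for Sr-CI, at 27.5 CPM. The log2 fold change of Sr-CI with age in O3 was then 0.77, against 0.41 with all libraries.

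Between strains of the same age, crq was the 1 gene of the 6 called in all 4 contrasts: it was lower in O1 and O3 than in B3 at both ages. At 6 weeks the O1 libraries had 141, 147 and 159 CPM of crq and the O3 libraries 175, 162 and 171 CPM, against 214, 208 and 214 CPM in B3. Neither line overlapped with B3, and the log2 fold changes were -0.51 ± 0.061 and -0.32 ± 0.061 (edgeR adjusted p = 1.36e-05 and 6.34e-04). At 1 week the changes were -0.37 ± 0.061 and -0.56 ± 0.061 (adjusted p = 6.43e-04 and 1.52e-05). At 6 weeks, Pxn was higher in both lines, with 70.8, 55.7 and 48.9 CPM in the O1 libraries and 88.2, 70.3 and 60.3 CPM in those of O3, against 32.8, 35.5 and 33.4 CPM in B3. That came to 0.79 ± 0.16 and 1.11 ± 0.16 on the log2 scale (edgeR adjusted p = 9.32e-04 and 5.28e-05), with no overlap. The gene eater was higher by 0.72 ± 0.18 in O1 and 0.66 ± 0.18 in O3 (adjusted p = 0.00565 and 0.00987). Hml was higher in O3 by 0.59 ± 0.22 (adjusted p = 0.0461), a call that was lost in 9 of the 18 fits without 1 library. In all, 3 of 6 genes were called for old O1 and 4 of 6 for old O3, where 44.4% and 40.3% of all genes were. For O1 these were 19.8% higher and 24.5% lower, and for O3 20% higher and 20.2% lower. Without library 1 of O3 at 6 weeks, Hml and eater lost their calls for old O3 (edgeR adjusted p = 0.216 and 0.0530).

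Gut markers moved with the higher Pxn and eater of the old lines. Of 9 gut genes, 9 were higher in old O1 and 8 in old O3 than in old B3, and 0 were lower. They summed to 9410.2 to 11701 CPM in O1 and 4403 to 10182 CPM in O3, against 2790.02 to 3852 CPM in B3. With age in B3, 6 of the 9 fell, and the sum at 1 week was 6424 to 8847 CPM. Their part in the Pxn and eater results was not tested.

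At 1 week NimC1 and Sr-CI were lower in O3 than in B3, a difference that was not called at 6 weeks for either gene. NimC1 had 33.6, 26.6 and 21.3 CPM in O3, against 37.3, 46.1 and 49.8 CPM in B3, with all O3 libraries lower and a log2 fold change of -0.71 ± 0.19 (edgeR adjusted p = 0.0133). Sr-CI had 46.5, 32.3 and 27.5 CPM in O3 and 51.3, 56.98 and 62.4 CPM in B3, also without overlap, and a log2 fold change of -0.69 ± 0.20 (adjusted p = 0.0206). The call of Sr-CI was lost in 4 of the 18 fits without 1 library. Markers of other tissues also differed between young O3 and B3, and their part was not tested. Of 7 accessory gland genes, 6 were higher in O3, with a sum of 121 to 1383 CPM in O3 and 2.75 to 45.5 CPM in B3. Of 5 nephrocyte genes, 4 were lower in O3, with a sum of 49.6 to 70.5 CPM in O3 and 99.5 to 121 CPM in B3. With crq, 3 of 6 hemocyte genes were lower in young O3, where 36% of all genes were called, 19.3% higher and 16.7% lower. In young O1, crq was the only one called, 1 of 6 where 23.8% of all genes were, 10.3% higher and 13.5% lower.

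In the day course, Hml and Pxn were higher in O3 than in B3. Averaged over the 4 times with equal weight, Hml was 0.78 ± 0.090 higher on the log2 scale in O3 than in B3 (edgeR adjusted p = 9.57e-08). In O3, Hml had 742, 719 and 777 CPM at ZT0, 698 and 468 at ZT6, 585, 489.6 and 564 at ZT12 and 413, 480.1 and 325 at ZT18. In B3 it had 364, 397 and 321 CPM at ZT0, 443 and 376 at ZT6, 369.8, 352 and 401 at ZT12 and 162 and 245 at ZT18. At each time the lowest O3 library was above the highest B3 library. In O1 the Hml values were 292, 390.2 and 381 CPM at ZT0, 333, 416 and 359 at ZT6, 363, 312 and 274 at ZT12 and 197 at ZT18, near those of B3, and the log2 difference from B3 had a 95% confidence interval of -0.32 to 0.08. Pxn was higher in O3 by 0.38 ± 0.060 (edgeR adjusted p = 8.98e-06) and was not called in O1, at 0.07 ± 0.065 (adjusted p = 0.393). Both lines had less crq than B3, with log2 fold changes of -0.41 ± 0.038 in O1 and -0.30 ± 0.035 in O3 (adjusted p = 3.14e-09 and 1.07e-07). Sr-CI was lower in both too, with -0.30 ± 0.072 in O1 and -0.25 ± 0.066 in O3 (adjusted p = 0.00109 and 0.00226). This was 2 of 6 genes for O1 and 4 of 6 for O3, where 56.1% and 60.7% of all genes were called. The calls over all genes were 28.6% higher and 27.6% lower for O1, and 31.3% higher and 29.4% lower for O3. The 2 day contrasts share the B3 libraries. Reads in no annotated feature also differed, with 12.0 to 16.5% of the total in O3 and 10.2 to 11.6% in B3, without overlap. In O1 they were 7.11 to 12.5%. The part of this measure in the day contrasts was not tested.

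**Figure D2:**
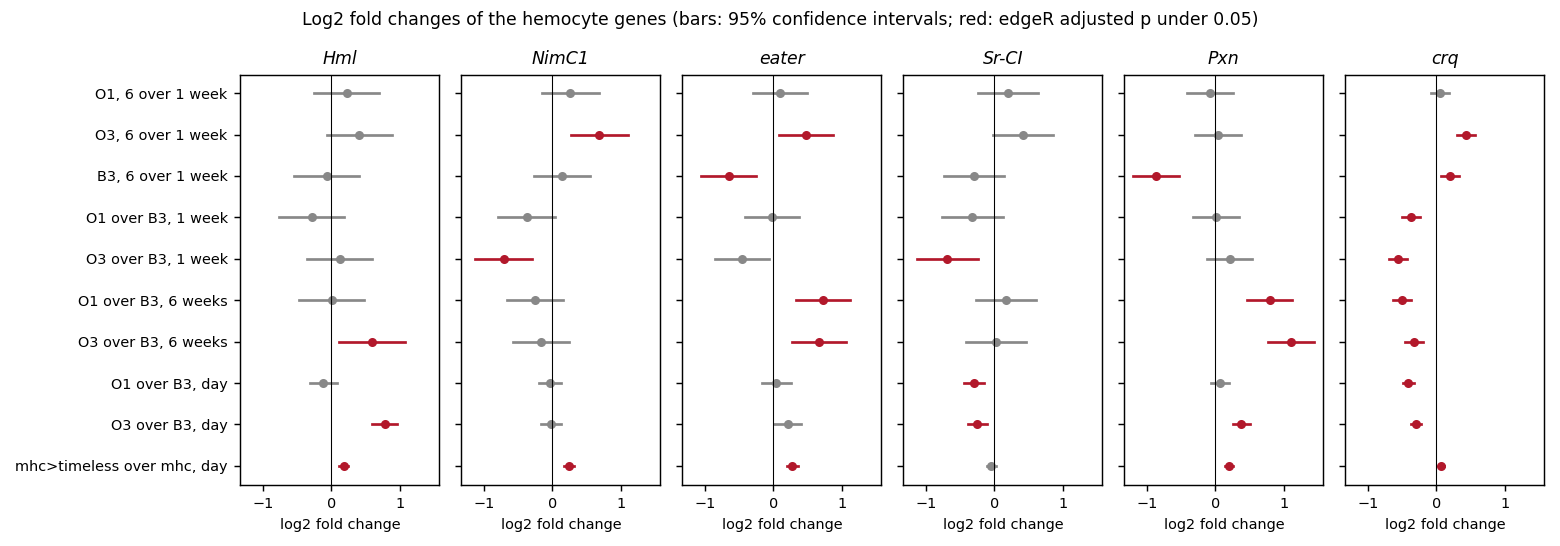
Log2 fold change (horizontal axis, 95% confidence interval as bars) of each hemocyte gene in 10 comparisons (rows), with calls at an edgeR adjusted p under 0.05 in red. The intervals of crq lie below 0 in all 6 comparisons of O1 or O3 with B3, and those of Hml lie above 0 for O3 against B3 at 6 weeks and across the day.

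Within the day course, the sample at ZT18 was the low point of all 6 genes in all 3 strains. Hml at ZT18 was at 56.8%, 64.9% and 53.3% of the mean of the other 3 times in O1, O3 and B3. For eater this was 36.9%, 54.4% and 52.9%, for NimC1 51.0%, 61.6% and 58.0%, and for Sr-CI 54.0%, 69.0% and 64.3%. Pxn was at 73.1%, 81.3% and 68.6% and crq was the least affected, at 89.4%, 91.9% and 82.4%. Over all 12295 genes tested, the median was 99.9%, 101% and 99.8%. In O1, O3 and B3, 7.56%, 3.42% and 5.07% of genes had a lower value at ZT18 relative to the other times than eater. For Hml the shares were 11.1%, 5.59% and 5.15%, and for crq 27.6%, 22.6% and 13.4%. In O1, 17.2% of all genes were below 75%, against 9.16% in O3 and 9.76% in B3.

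The library values show the size of that dip. NimC1 had 23.5 CPM in the only O1 library at ZT18, against 39.00 to 58.4 CPM at the other times. In O3 it had 28.3, 28.8 and 24.9 CPM at ZT18, against 40.5 to 54.4 CPM at the other times, and in B3 21.3 and 32.04 CPM, against 35.7 to 55.3 CPM. All ZT18 libraries were below all others of their strain for NimC1, while for Hml in O3 1 library at ZT18 lay above the lowest at ZT6. The gene eater had 4.16 CPM at ZT18 in O1, 7.08, 6.90 and 4.62 CPM in O3 and 3.93 and 6.55 CPM in B3, against 8.33 to 16.8, 8.70 to 13.1 and 7.92 to 11.8 CPM at the other times, again without overlap. Sr-CI had 32.9 CPM at ZT18 in O1, 39.8, 46.6 and 35.9 CPM in O3 and 36.5 and 55.5 CPM in B3, against 48.5 to 70.4, 49.3 to 69.1 and 61.7 to 77.8 CPM. Pxn in O3 had 86.1, 87.9 and 63.6 CPM at ZT18, against 88.2 to 108 CPM, with 1 library lower than the other 2, and all 3 below the other times. For crq, 2 of the 3 strains had no overlap: ZT18 held 123, 132 and 127 CPM in O3 and 141 and 148 CPM in B3, against 133 to 144 and 162 to 189 CPM. In O1 the single ZT18 library had 116 CPM, within the 115 to 142 CPM of the other times.

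A joint test of the 4 time-point means called all 6 genes in B3, where 11.2% of all genes were called, with edgeR adjusted p from 0.00137 for NimC1 to 0.0128 for crq. In O1, where the lone ZT18 library is assumed to vary like the other groups, NimC1, eater and Sr-CI were called, 3 of 6 where 10.9% were, and in O3 Hml, NimC1, eater and Sr-CI, 4 of 6 where 17% were. The amplitude, the highest minus the lowest fitted time point on the log2 scale, was 1.72, 0.99 and 1.00 for eater in O1, O3 and B3 and 0.20, 0.13 and 0.38 for crq. A joint test of ZT0, ZT6 and ZT12 alone, chosen after the results were seen, called 0 of 6 genes in each strain. The ZT18 libraries stayed in the fit and were left out of the contrast only. The edgeR adjusted p were at least 0.0974, 0.122 and 0.115 in O1, O3 and B3. That test called 9.73%, 11.8% and 6.38% of all genes. In B3 the count rested on 2 libraries, and without library 2 at ZT18 only NimC1 and Pxn were called. No difference in profile between strains was called by the test of that difference: 0 of 6 genes were called for O1 against B3, where 1.4% of all genes were, and 0 of 6 for O3 against B3, where 1.55% were. DESeq2 also called 0 in both, where it called 4.06% and 5.35% of all genes, and 2 and 0 of the 6 had an unadjusted edgeR p under 0.05.

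Other gene lists moved at ZT18 as well. Nephrocyte genes at ZT18 were at 54.2%, 77.2% and 65.1% of the mean of the other times in O1, O3 and B3, and basement membrane genes at 72.2%, 84.4% and 76.9%. Fat body genes were at 80.5%, 96.9% and 79.2% and muscle genes at 96.7%, 92.0% and 99.6%. The other hemocyte lists differed. Genes of crystal cells and lamellocytes, further types of hemocyte, were at 76.4%, 77.0% and 73.4% in O1, O3 and B3. Genes of hemolymph clotting were at 86.0%, 79.7% and 83.0%, and those of the hemocyte lineage at 88.9%, 93.7% and 82.5%. The secreted Nimrods were at 90.1%, 94.3% and 100.5%. These values rest on summed CPM, in which vir-1 of the lineage list averaged 692 CPM and nimB2 of the Nimrods 203 CPM. The next largest genes of those lists, Pvr and nimB5, averaged 136 and 23.7 CPM in the day course. The other hemocyte receptors, drpr and PGRP-LC among them, were at 93.0%, 100.3% and 106%. The part of these in the dip was not tested. ZT18 library totals of 51.6 M counts in O1, 46.6 to 65.2 M in O3 and 44.6 to 64.0 M in B3 lay within the range of the other times.

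**Figure D3:**
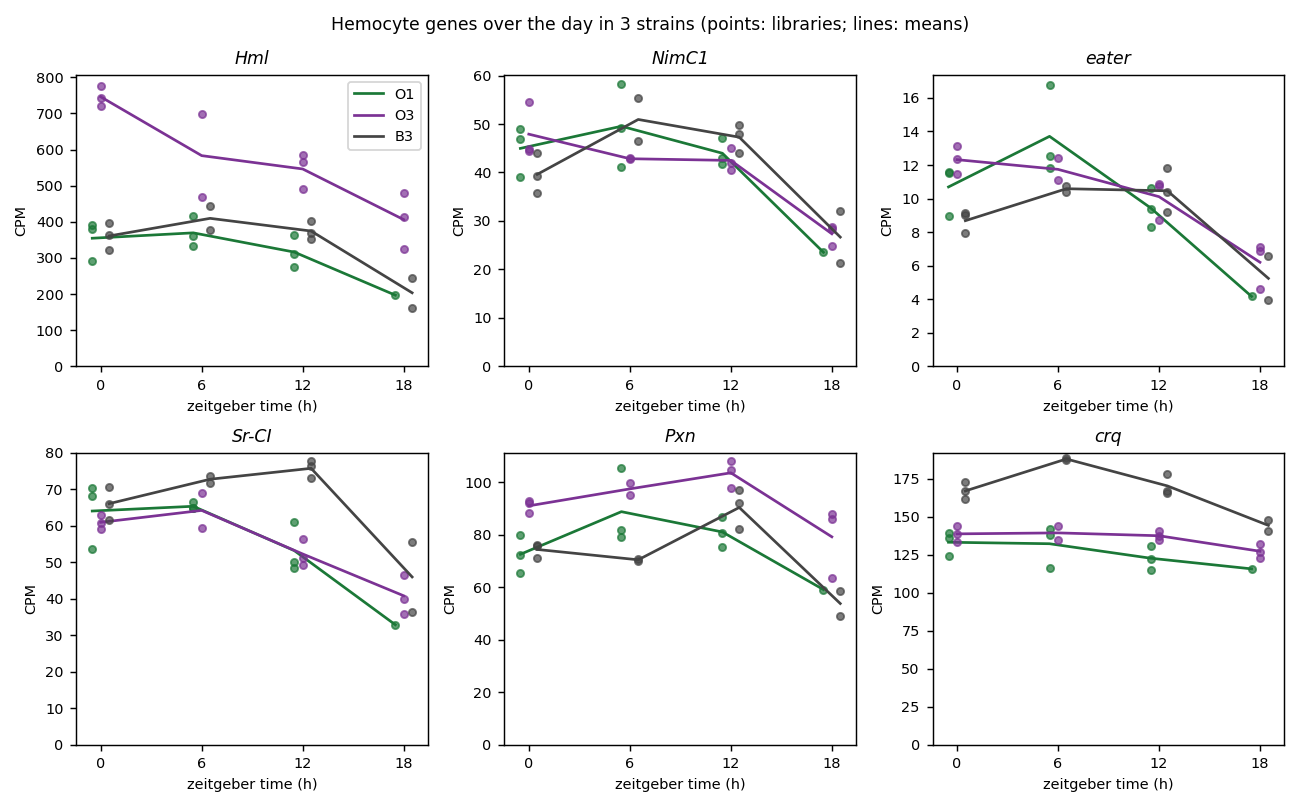
CPM of each hemocyte gene (vertical axis, from 0) at ZT0, ZT6, ZT12 and ZT18 (horizontal axis, hours) in O1, O3 and B3, with libraries as points and means as lines. The lowest mean of every gene and strain is at ZT18, and Hml of O3 lies above B3 at each time.

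The dip at ZT18 was not seen in the transgenic lines. At ZT18 the 6 genes stood at 92.9 to 102% of the mean of the other times in mhc>timeless and at 94.1 to 119% in mhc. Time of day was called for Hml alone in mhc>timeless, 1 of 6 where 19.1% of all genes were, with an amplitude of 0.22 (edgeR adjusted p = 0.0409). This call was lost in a test of ZT0, ZT6 and ZT12 alone, which called crq instead, and in 7 of the 23 fits that left out 1 library. In mhc, NimC1, Sr-CI, Pxn and crq were called, 4 of 6 where 22.6% were, with amplitudes of 0.14 for crq to 0.36 for NimC1. Without library 1 at ZT12 or library 2 at ZT6 of mhc, Sr-CI and Pxn lost their calls. The mhc libraries at ZT18 were also deeper than those at the other times, and depth and time cannot be told apart there. The strain and transgenic courses were fitted in separate models, and the difference between them was not tested.

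Averaged over the day, 5 of the 6 genes were slightly higher in mhc>timeless than in mhc, with calls for 18.4% of the 12727 genes tested, 8.68% higher and 9.75% lower. The log2 fold changes were 0.27 ± 0.040 for eater, 0.24 ± 0.032 for NimC1, 0.20 ± 0.029 for Pxn, 0.18 ± 0.032 for Hml and 0.07 ± 0.018 for crq (edgeR adjusted p from 4.16e-05 for NimC1 to 0.00919 for crq). Sr-CI was not called, with -0.04 ± 0.030. The difference was widest at ZT6, where NimC1 had 77.8, 77.1 and 77.8 CPM in mhc>timeless, against 54.2, 56.1 and 59.7 CPM in mhc. Hml had 469.5, 458 and 472 CPM in mhc>timeless and 365, 332 and 357 CPM in mhc at ZT6, and eater had 14.6, 15.1 and 15.6 CPM in mhc>timeless and 11.6, 10.1 and 10.4 CPM in mhc. None of these overlapped, and at ZT6 taken alone, a split chosen after the values were seen, 5 genes were called, where 5.35% of all genes were. At ZT18 the values of NimC1 lay closer, with 75.4, 72.1 and 79.6 CPM in mhc>timeless and 75.04, 63.3 and 80.1 CPM in mhc. For Hml and Pxn the genotypes were closest at ZT12, with log2 differences of 0.02 and 0.10, against 0.14 and 0.17 at ZT18. At ZT0 alone, 1 of 6 genes was called, NimC1, where 3.69% of all genes were, and at ZT12 alone 0 of 6, where 6.44% were. The ZT18 contrast alone called 0 of 6, where 2.66% of all genes were, with log2 fold changes of -0.03 to 0.19. The joint test of time by genotype also called 0 of 6 with edgeR, where 0.126% of all genes were called. For that test, 5 of the 6 had an unadjusted p under 0.05 and DESeq2 called 3, namely Hml, NimC1 and Sr-CI, where it called 4.69% of all genes.

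Depth moved with the genotype in this experiment. The mhc>timeless libraries held 138.7 to 160.5 M counts at ZT0, 147 to 170 M at ZT6 and 134 to 161 M at ZT12, against 67.1 to 71.9, 53.1 to 59.9 and 59.7 to 63.7 M in mhc. At ZT18 the totals were 124 to 139 M in mhc>timeless and 148 to 168 M in mhc. Depth and genotype cannot be told apart at ZT0, ZT6 and ZT12. Basement membrane genes were also higher in mhc>timeless, 8 of 10 called, with vkg, a collagen IV chain, at 0.41 ± 0.036 (edgeR adjusted p = 4.72e-07) on the log2 scale.

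**Figure D4:**
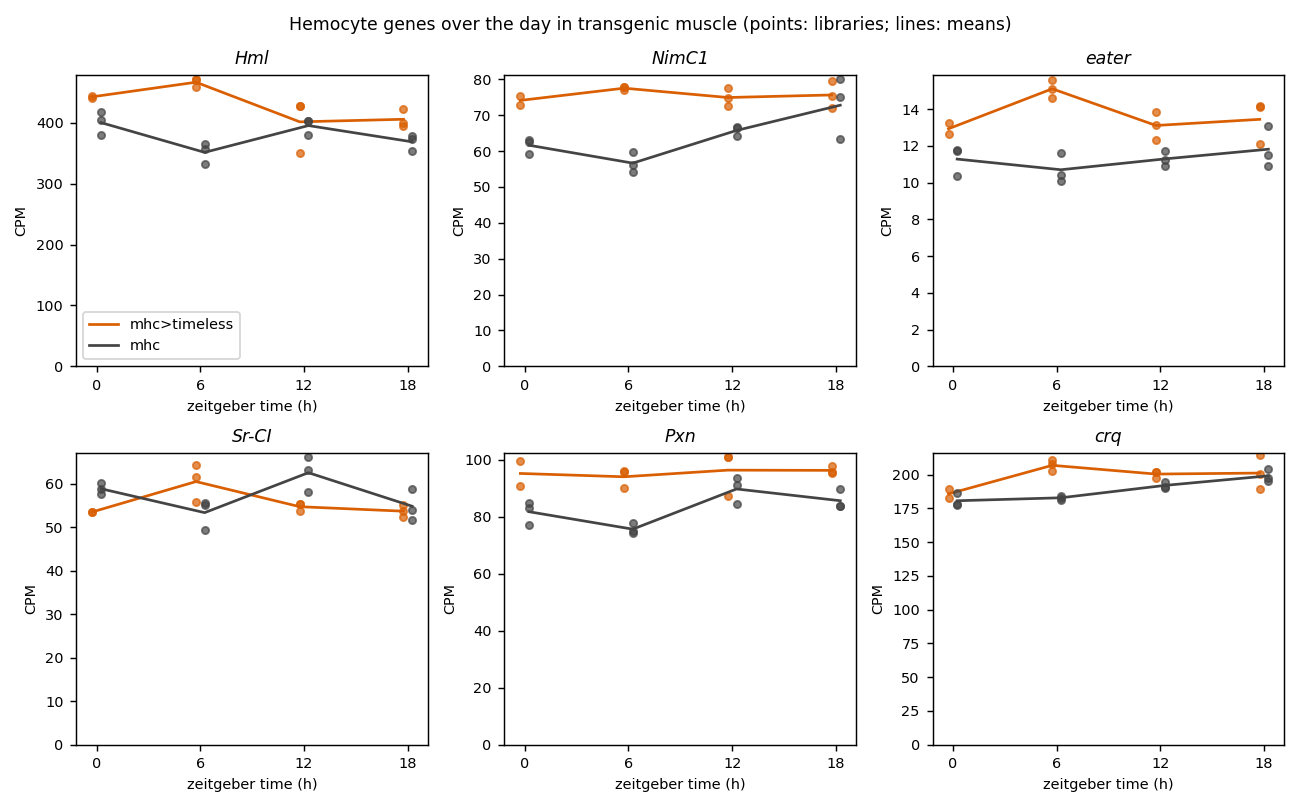
CPM of each hemocyte gene (vertical axis, from 0) at ZT0, ZT6, ZT12 and ZT18 (horizontal axis, hours) in mhc>timeless and mhc, with libraries as points and means as lines. The genotypes are farthest apart at ZT6 for Hml, NimC1 and eater and nearer at the other times.

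Groups of the day course differed most for Hml and eater, while replicates differed least for crq in all 3 experiments. The highest group mean exceeded the lowest by 3.79-fold for Hml in the day course and by 3.25-fold for eater, against 1.63-fold for crq and a median of 1.64-fold over all genes tested. For Hml, eater and crq the lowest group was O1 at ZT18, so the low end of these ranges rests on 1 library. In the age experiment the ranges were 1.64-fold for Sr-CI to 2.13-fold for Pxn, with 1.69-fold for crq, around the all-gene median of 1.76-fold. In the transgenic experiment they were 1.15-fold for crq to 1.41-fold for eater, with a median of 1.25-fold. Replicate libraries differed little for crq, with a within-group SD of 0.074, 0.077 and 0.042 on the log2 scale in the age, day and transgenic experiments, smaller than in all but 8.41%, 15.9% and 6.15% of genes. Hml had an SD of 0.29, 0.22 and 0.078, larger than 67.6%, 64.8% and 39.7% of genes.

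The deviation of each library from its group mean was compared between genes. Over the 71 libraries from groups of 2 or more, the 10 pairs among Hml, NimC1, eater, Sr-CI and Pxn had Pearson correlations of 0.63 to 0.81 (Spearman 0.48 to 0.73), while the 5 pairs with crq had -0.06 to 0.40 (Spearman 0.01 to 0.44). Within the age experiment the 10 pairs had 0.63 to 0.95, within the day course 0.49 to 0.78 and within the transgenic experiment -0.17 to 0.72. The 5 pairs with crq had 0.18 to 0.52, -0.25 to 0.48 and -0.15 to 0.42 there, so in the transgenic libraries they lay within the range of the other pairs. The points share libraries and depth, and the correlations are descriptive. After leaving out the 2 libraries farthest from the median of the first gene of each pair, the 10 pairs had 0.54 to 0.77. Among 8392 other genes compared, the nearest genes to these 5 over the deviations included the extracellular matrix genes Ppn (0.84 with Pxn), vkg (0.80 with Pxn) and LanB1 (0.78 with Hml), which encode papilin, a collagen IV chain and a laminin chain. NtR (0.83 with Sr-CI) and the C-type lectin gene lectin-24Db (0.81 with Sr-CI) were also among them. Those nearest to crq were others, vsg, CG6707 and CG16953, at 0.65, 0.64 and 0.64.

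**Figure D5:**
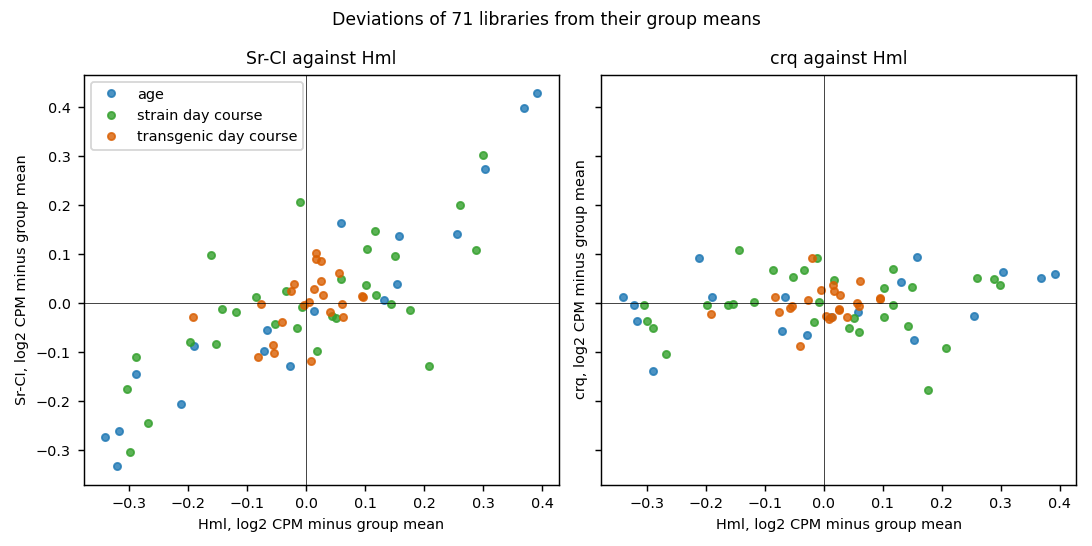
Deviation of each of 71 libraries from its group mean (log2 CPM), with Hml on the horizontal axes and Sr-CI (left) or crq (right) on the vertical axes, coloured by experiment. The points of Sr-CI rise along with Hml, while those of crq stay within a narrow band.

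Over the 26 group means, centred within each experiment, the genes nearest to Hml were CG9377, Sema-2a, CG5322, CG13793 and CG6206 (Pearson 0.81 to 0.85). NimC1 was nearest to Fuca, CG42255 and Karl (0.85 to 0.91), and eater to lectin-24Db, CG4950 and CG6834 (0.87 to 0.92). CG42255, at 0.89 with NimC1, is Cubn2, which is among the listed nephrocyte genes. Sr-CI was nearest to CG1092, NimC1 and CG9372 (0.82 to 0.83), Pxn to regucalcin, Cyp9b2 and CG31103 (0.86 to 0.90), and crq to CG15083, CG13795 and Lamp1 (0.92 to 0.93). Lamp1 encodes a membrane protein of the lysosome.

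Related hemocyte genes did not follow the 6 genes in each comparison. In B3 with age, 4 of the 5 secreted Nimrod genes rose and none fell, where 21.8% of all genes rose, with nimB1 at 1.01 ± 0.15 (edgeR adjusted p = 8.93e-05) and nimB3 at 0.79 ± 0.15 (adjusted p = 5.60e-04). Of 9 other hemocyte receptors tested, PGRP-LC, a receptor for bacterial peptidoglycan, rose by 0.60 ± 0.096, drpr, the engulfment receptor Draper, rose by 0.35 ± 0.083, and 0 fell, so the 2 of 9 that rose were near the share of all genes. Among 5 genes of crystal cells and lamellocytes, which are the melanizing and encapsulating hemocytes, proPO-A1, a prophenoloxidase, fell by 4.43 ± 0.39 on the log2 scale (adjusted p = 5.67e-07). The integrin gene alphaPS4 and lz, a transcription factor of crystal cells, rose by 1.51 ± 0.34 and 1.47 ± 0.45. Both had few reads, with means of 1.58 and 0.68 CPM over the age libraries, against 46.3 CPM for proPO-A1. In O3 with age, 4 of 5 secreted Nimrods and 3 of 9 receptors rose, where 22.8% of all genes did, and 0 of 5 genes of crystal cells and lamellocytes were called, with proPO-A1 at -0.61 ± 0.33 (edgeR adjusted p = 0.136). The median log2 fold changes of the 6 hemocyte genes were -0.18 in B3, 0.15 in O1 and 0.42 in O3, beside -0.03, -0.03 and -0.0019 over all genes tested.

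Across the day, all 5 secreted Nimrods were lower in O1 and in O3 than in B3, with median log2 fold changes of -0.59 and -0.47. Of the 10 other hemocyte receptors tested, 7 were lower and 1 was higher in O1, and 5 were lower and 1 higher in O3. Of all genes, 27.6% were lower and 28.6% higher in O1, and 29.4% were lower and 31.3% higher in O3. In O3 this stood beside the higher Hml and Pxn. For time of day, the joint test called 0 of 10 other receptors in B3 and O1 and 1 of 10 in O3. Of the 5 secreted Nimrods it called 2 in O1, 3 in O3 and 0 in B3. In the same test, 5 of 10 basement membrane genes were called in O1, 3 in O3 and 5 in B3. The shares over all genes were 10.9%, 17% and 11.2% in O1, O3 and B3.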

How the data were processed

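RNA was extracted from fly muscle with Trizol and sequenced on Illumina instruments, per the labels' protocols. The authors deposited raw read counts per gene. BWA, STAR, HTSeq and the build dm3 are named in the submitters' processing notes, without versions. For the counting, the annotation and the strand setting were not given in the sources used here. Summary rows, which hold no gene, entered neither library sizes nor tests. Reads in no annotated feature were 7.11 to 27.9% of the total. Each experiment was fitted in 1 model with a mean per group in edgeR 4.0.16 (R 4.3.3), after filterByExpr and with TMM factors, leaving 12445, 12295 and 12727 genes in the age, day and transgenic experiments. Quasi-likelihood tests were adjusted by the Benjamini-Hochberg method over all genes tested and called at an adjusted p under 0.05. Errors on log2 fold changes are standard errors. The program was tested on simulated data. Replicate pairs differed beyond sampling noise. The nearest genes are the 3 with the highest Pearson correlation (5 for Hml) over 26 group means or 71 library deviations, among genes whose log2 CPM averaged at least 2. Exon lengths and chromosome arms come from the Ensembl BDGP6 annotation, not dm3. No sequence is printed. Alternatives included DESeq2 1.42.0, other scalings, no filter, a replicate block and leaving out libraries. The members and lists were chosen with earlier results of these data known.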

Additional observations from a re-analysis of the deposited data

Results flagged for a closer look

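The effect of age on 2 of the 6 hemocyte genes differed between strains in edgeR's test of the difference itself. For Pxn the age effect on the log2 scale was 0.78 higher in O1 than in B3 and 0.90 higher in O3 than in B3. For eater it was 1.12 higher in O3 than in B3. No group held more than 3 libraries, so no library was tested as an outlier.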

How the results depend on the processing

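Among single-gene values, 739 kept direction and side of the threshold under other settings, 29 lost a call, 23 gained one and 13 uncalled values changed sign. Library totals gave a log2 value of 0.056 for Hml (age, B3), 0.12 for Pxn (age, O1), -0.0024 for Pxn (young O1 against B3) and 0.0039 for NimC1 (O3 against B3 across the day). Upper-quartile scaling gave -0.032 for Pxn (age, O3), 0.058 for eater (young O1 against B3), -0.012 for Sr-CI (old O3 against B3) and 0.031 and 0.044 for NimC1 (O1 and O3 against B3 across the day). DESeq2 and its size factors gave -0.0040 for Pxn (age, O3). Without the testis-rich libraries, which left library 3 alone in young O3, Hml was at -0.22 (young O3 against B3). With ZT18 left out of the contrast, NimC1 was at 0.012 (O1 against B3 across the day). The cause was not tested.

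Of the 6 genes, library totals called 1 for age in O1 and 3 for time in mhc>timeless, where 38.1% and 23.3% of all genes were called. DESeq2 called 5 for time in O1, 3 for time in mhc>timeless and 3 for time by genotype. Its shares over all genes were 15.3%, 26.5% and 4.69%. Without the testis-rich libraries, 1 library was left in O1 at 1 week. The age effect of eater was then 1.17 higher on the log2 scale in O1 than in B3, against 0.75 with all libraries. With ZT18 left out of the contrast, the time test called 0 in O1, O3 and B3 and 2 in mhc. The shares over all genes were 9.73%, 11.8%, 6.38% and 12.2%. ZT18 alone called 0 for mhc>timeless against mhc, where 2.66% of all genes were called.

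Leaving out 1 library gave counts of 2 to 3 (age, B3), 1 to 5 (age, O3), 2 to 4 (O3 against B3, young and old alike), 0 to 1 (age by strain, O1), 2 to 3 (age by strain, O3), 2 to 6, 3 to 5 and 4 to 5 (time in B3, O1 and O3), 4 to 5 (O3 against B3 across the day), 0 to 1 (time in mhc>timeless), 2 to 5 (time in mhc) and 0 to 1 (time by genotype). Uncalled values that changed sign without 1 library ran from -0.21 to 0.030 (Hml, age, B3), -0.083 to 0.27 and -0.24 to 0.033 (eater and Pxn, age, O1), -0.12 to 0.19 (Pxn, age, O3), -0.19 to 0.16 and -0.057 to 0.061 (eater and Pxn, young O1 against B3), -0.10 to 0.26 (Hml, young O3 against B3), -0.087 to 0.14 (Hml, old O1 against B3), -0.20 to 0.15 (Sr-CI, old O3 against B3), -0.10 to 0.046 and -0.036 to 0.15 (NimC1 and eater, O1 against B3 across the day) and -0.080 to 0.058 (NimC1, O3 against B3 across the day). The lone O1 library at ZT18 could not be left out. The shares of all genes called in the fits without 1 library are not given here. For age in O1, the median log2 fold change of all genes was 0.18 with library totals and -0.026 with TMM factors.

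Replicate numbers did not pair the samples, with a median correlation of -0.086, 0.013 and 0.010 in the age, day and transgenic experiments. Within O3, same-numbered libraries of the 2 ages had -0.31, 0.037 and -0.25 over all genes, although the hemocyte genes ranked alike by number there. With the replicate block, eater in O3 with age had an adjusted p of 0.0597 and Hml in old O3 against B3 one of 0.0657.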
